A study of Mus musculus with 6 samples.

Results

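The genes described here are 9 genes of simple epithelium and the biliary lineage, out of 20659 genes named on the array: the hepatocyte keratins Krt8 and Krt18, and the biliary genes Krt19, Krt7, Krt23, Elf3, Sox9, Epcam and Spp1. A probe belonged to a gene when its RefSeq accession did, and each of the 9 had 1 probe. The genes were chosen with the difference between DECB and control livers in these same arrays known, so that difference is given below as a description, without a test of its own.

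Keratins are the intermediate filament proteins of epithelia, built from pairs of a type II and a type I chain. Hepatocytes hold a single pair, keratin 8 (type II) and keratin 18 (type I), whereas cholangiocytes, the cells that line bile ducts, also make keratins 7 and 19. Filaments of keratins 8 and 18 protect hepatocytes against mechanical and toxic stress, and both genes are induced in stressed liver. SOX9, EPCAM, osteopontin (Spp1), keratin 23 and the ETS factor ELF3 are known from bile duct cells, from ductular progenitor cells or from injured liver.

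Liver RNA came from male ICR mice, an outbred stock of 18 to 22 g at the start, and was read on 1-colour Agilent arrays in the Cy3 channel. The DECB group received deproteinized extract of calf blood, and the control group received normal saline, both into the stomach, with a daily volume of 0.08 mL for each 20 g of mouse over 35 days. Of 24 mice in groups of 12, 3 DECB arrays (DECB 4, 5 and 6) and 3 control arrays (control 1, 2 and 3) were analysed; the sample descriptions give day 30 for DECB and day 1 for control, which conflicts with 35 days in both. Mice of both groups were also timed for tolerance of hypoxia in closed containers, and the order of that test and liver collection is not given. Nothing in the labels says that each array came from its own mouse, so p-values measure the spread between these samples alone, which may be technical.

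The arrays came from 3 scan sessions by the scan times in the file headers: scan 1 held DECB 6 and control 1, scan 2 held DECB 4 and controls 2 and 3, and scan 3 held DECB 5. Scan 1 was dim. The signal at the 75th percentile was 84.8 in DECB 6 and 78.8 in control 1, against 425 and 528 in the other DECB arrays and 422 and 551 in the other controls. A probe counted as measured on an array when the scanner software called it well above background, and 14922 to 29490 of 39429 probes did so. Values below are log2 signals relative to each array's 75th percentile, on which the lowest measured signal was -2.26 in DECB 6 and -1.95 in control 1, and between -5.03 and -4.07 on the other arrays. Albumin (Alb), the defining product of hepatocytes, lay between 8.96 and 9.31 in DECB livers and between 9.06 and 9.38 in control livers.

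Krt8 and Krt18 differed together and Krt23 ran the other way, so the annotated start regions of these 3 genes are shown, 250 bases before to 50 bases after the start, from RefSeq on GRCm38.p6, 5′ to 3′ on the gene's strand. Krt8 (chr15:102004293-102004592, minus strand) and Krt18 (chr15:102027966-102028265, plus strand) are neighbours on chromosome 15, with no protein-coding gene between them, and Krt23 (chr11:99493071-99493370, minus strand) lies on chromosome 11. Capitals mark every match on either strand to 4 motifs, GGAAG (a core of ETS factor sites such as those of ELF3), GGGCGG (the GC box), TATAAA (the TATA box) and TGANTCA (an AP-1 site).
Krt8: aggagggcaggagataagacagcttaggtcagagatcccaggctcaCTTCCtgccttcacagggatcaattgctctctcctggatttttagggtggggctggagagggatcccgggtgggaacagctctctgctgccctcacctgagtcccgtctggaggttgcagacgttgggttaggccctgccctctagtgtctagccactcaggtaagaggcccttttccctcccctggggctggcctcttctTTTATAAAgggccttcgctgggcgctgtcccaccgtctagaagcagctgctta
Krt18: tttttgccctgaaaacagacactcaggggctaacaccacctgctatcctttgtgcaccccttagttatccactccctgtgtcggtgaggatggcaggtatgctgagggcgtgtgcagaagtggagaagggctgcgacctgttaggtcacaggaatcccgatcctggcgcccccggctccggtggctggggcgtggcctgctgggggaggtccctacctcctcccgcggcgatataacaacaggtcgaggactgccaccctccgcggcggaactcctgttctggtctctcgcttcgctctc
Krt23: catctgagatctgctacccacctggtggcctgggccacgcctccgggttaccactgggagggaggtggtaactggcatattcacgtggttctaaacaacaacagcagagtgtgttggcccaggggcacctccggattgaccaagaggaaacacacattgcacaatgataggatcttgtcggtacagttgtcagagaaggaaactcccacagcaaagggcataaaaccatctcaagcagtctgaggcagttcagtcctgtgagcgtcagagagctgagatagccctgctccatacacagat
The Krt8 window held 1 GGAAG match and 2 TATAAA matches, which overlap each other on opposite strands at the annotated start. The Krt18 and Krt23 windows held 0 matches to the 4 motifs, as did that of Elf3. Spp1 has 2 windows in the table, the first with 3 GGAAG matches and 1 TATAAA match and the second with 1 GGAAG match. Among 32851 windows of this length in the table, 71.4% held GGAAG, 35.7% GGGCGG, 13.6% TATAAA and 7.81% TGANTCA. A match is a description of letters, not of a bound factor.

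Both hepatocyte keratins were higher in DECB livers. Krt8, the type II chain, had values of 2.80, 3.92 and 3.64 on DECB arrays 4, 5 and 6, against -0.02, -0.02 and 0.55 on controls 1, 2 and 3. The lowest DECB array stood 2.24 above the highest control. The mean was 3.45 ± 0.58 in DECB and 0.17 ± 0.33 in control livers (SD, n = 3 each), a difference of 3.28 (SE 0.38, log2), or 9.73-fold. Krt18, its type I partner, had values of 5.61, 6.44 and 6.58 on the DECB arrays, against 3.34, 3.31 and 3.46 on the controls. These groups did not overlap either, with a gap of 2.16, and the controls lay within a narrow band. Krt18 averaged 6.21 ± 0.52 in DECB and 3.37 ± 0.08 in control livers (SD, n = 3 each), a difference of 2.84 (SE 0.34, log2), or 7.17-fold. Both keratins were well above background on all 6 arrays. A change in the number of cells of a type and a change in RNA per cell cannot be told apart in whole liver.

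The 2 partner chains moved by similar amounts on each array. Relative to its own control mean, Krt8 was up by 2.63, 3.75 and 3.47 on DECB 4, 5 and 6, and Krt18 by 2.25, 3.07 and 3.21. On each DECB array Krt8 exceeded Krt18 in this measure, by 0.38, 0.67 and 0.26, while the same quantity on the controls ran from -0.16 to 0.29, so DECB 6 lay inside the range of the controls. DECB 4 was the lowest of the DECB arrays for both keratins. Of 14804 genes ranked by difference, Krt8 was the 16th from the top and Krt18 the 32nd.

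**Figure D1:**
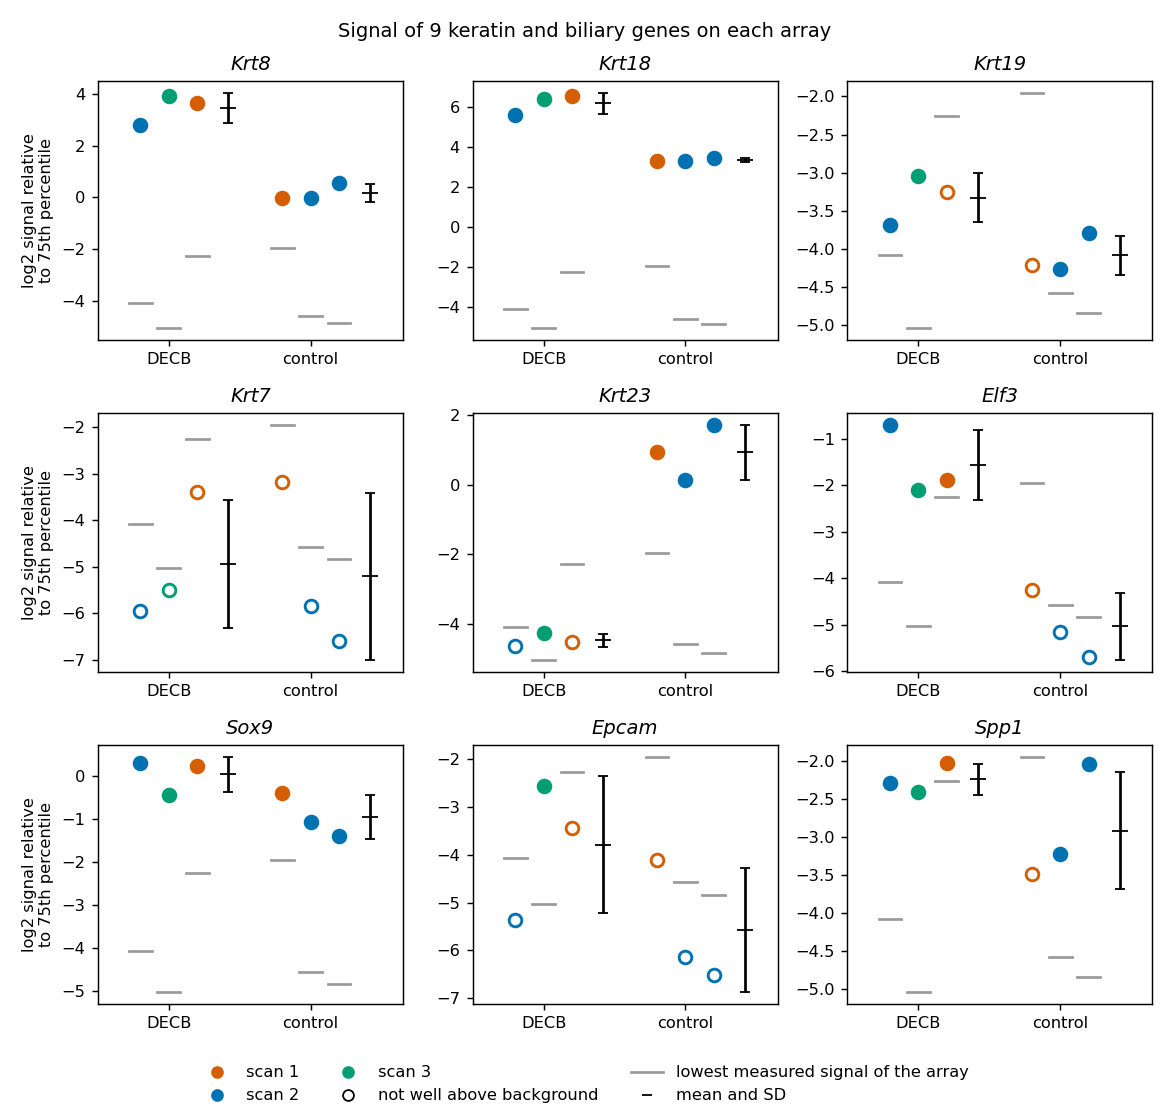
Log2 signal of each of the 9 genes relative to the array's 75th percentile (vertical axis) on 3 DECB and 3 control arrays, coloured by scan session, with group mean and SD. Open circles were not well above background, and grey lines give the lowest measured signal of each array: Krt8 and Krt18 stand well above it everywhere, with DECB arrays at least 2.16 above the controls, while Krt23 lies below or near it on all 3 DECB arrays.

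Krt23, a type I keratin of simple epithelia, was lower in DECB livers. Its values were -4.64, -4.27 and -4.51 on DECB arrays 4, 5 and 6, against 0.95, 0.15 and 1.72 on controls 1, 2 and 3. The groups were 4.41 apart at their nearest points. All 3 controls were well above background, but of the DECB arrays only DECB 5 was, so the other 2 DECB values are background readings. The means were -4.47 ± 0.19 in DECB and 0.94 ± 0.79 in control livers (SD, n = 3 each), a difference between readings of -5.41 (SE 0.43, log2). With each DECB value raised to the lowest measured signal of its array where it was below it, Krt23 was at least 22.2-fold lower in DECB livers. This bound holds for the scaling used here: the difference was -2.98 with normexp, another background correction with an offset, and -2.89 with all values raised to the floor of the dimmest array. Controls 2 and 3, the most alike pair of arrays (Pearson's r = 0.992 across 14750 genes, which are not independent replicates), differed from each other by more than 1 log2 unit for Krt23.

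Elf3, an ETS-family transcription factor of epithelia, was measured in DECB livers alone. Its values were -0.71, -2.11 and -1.89 on DECB 4, 5 and 6, all well above background, and -4.26, -5.16 and -5.69 on controls 1, 2 and 3, none of them so. Elf3 was therefore at least 4.66-fold higher in DECB livers, a bound that sets the DECB mean against the lowest measured signal of each control array. The mean readings were -1.57 ± 0.76 in DECB and -5.04 ± 0.72 in control livers (SD, n = 3 each), the control readings being background. The bound holds for this scaling alone, since the difference was 1.29 (log2) with normexp and 0.44 with all values raised to the floor of the dimmest array. DECB 4, lowest of its group for the 2 hepatocyte keratins, was the highest for Elf3.

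Sox9, a transcription factor of bile duct and progenitor cells, was well above background on all 6 arrays. It had values of 0.31, -0.43 and 0.25 on DECB 4, 5 and 6, against -0.39, -1.07 and -1.40 on controls 1, 2 and 3. DECB 5 lay just below control 1, so the groups overlapped. The means, 0.04 ± 0.41 in DECB and -0.95 ± 0.52 in control livers (SD, n = 3 each), were 1.00 apart (SE 0.38, log2).

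The other biliary genes lay close to background. Krt19, the type I keratin that marks bile ducts, had values of -3.68, -3.04 and -3.26 on DECB 4, 5 and 6, against -4.21, -4.26 and -3.79 on controls 1, 2 and 3. The DECB arrays were all higher, but the gap was 0.11, and the arrays of scan 1 were not well above background. The difference was 0.76 (SE 0.31, log2), 1.69-fold on arrays where 4 of 6 values were measured. Spp1, which encodes the secreted matrix protein osteopontin, had values of -2.30, -2.42 and -2.03 on DECB 4, 5 and 6, against -3.49, -3.23 and -2.05 on controls 1, 2 and 3. The groups overlapped through control 3, and control 1 was not well above background. The difference was 0.68 (SE 0.42, log2).

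Krt7 and Epcam did not pass the filter of at least 3 arrays well above background and were not tested. Krt7, the type II keratin of bile ducts, was not well above background on any of the 6 arrays, with values from -5.95 to -3.38 in DECB and from -6.59 to -3.18 in control livers. Epcam, an adhesion molecule of bile duct epithelium, was so on DECB 5 alone. Its values were -5.37, -2.57 and -3.44 on DECB 4, 5 and 6, against -4.10, -6.13 and -6.51 on controls 1, 2 and 3.

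Of the 9 genes, 7 were tested. Krt8 and Krt18 passed as higher and Krt23 as lower in the fit over all genes (limma, Benjamini-Hochberg adjusted p under 0.05), which called 0.466% of the 14804 genes, 0.209% as higher and 0.257% as lower. Elf3 did not pass (limma, adjusted p = 0.0514). It passed the filter through the DECB arrays alone, so its calls and its place in the counts below rest on background readings in the controls. Elf3 was called with array weights and with the mean of a gene's probes. It has 1 probe, so that mean left its own values unchanged. Krt23 did not pass with normexp. The 3 DECB arrays lay all above the 3 controls for 4 of the 7 tested genes and all below for 1, against 16.6% of 14750 genes in either direction, 7.24% above and 9.4% below. These counts describe genes picked on this contrast. Besides Elf3, Krt19, counted as above, was at background on control 1 and DECB 6. Krt23, counted as below, was at background on DECB 4 and DECB 6. Of the genes counted, Krt8 and Krt18 alone were well above background on all 6 arrays. The calls depended on single arrays: without control 1, control 3, DECB 4 or DECB 5, none of the 9 genes passed and limma called 0 genes in all (1341, 916, 1218 and 1158 genes at an unadjusted p under 0.05). Without control 2, Krt23 alone passed, and without DECB 6, Krt18 and Krt23 did. With both arrays of scan 1 left out, none of the 9 passed, while 78 other genes did.

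The differences between readings held their sign in each scan session that has both groups, each with 1 DECB array. Krt8 differed by 3.66 within scan 1 and 2.53 within scan 2, Krt18 by 3.24 and 2.23, and Krt23 by -5.45 and -5.57. The Krt23 readings of the DECB arrays in both sessions were background, so the sizes of its differences are not measured. For Elf3 the values were 2.37 and 4.72, with the controls at background in both. These sizes are not measured either. In scan 1, DECB 6 at -1.89 stood barely above the lowest measured signal of control 1, -1.95. Sox9 differed by 0.64 and 1.54, Krt19 by 0.95 and 0.34, and Spp1 by 1.46 and 0.34. In scan 1, Krt19 on both arrays and Spp1 on control 1 were not well above background. With scan as a block, DECB 5 adds nothing to the contrast. That fit called 6.65% of 14750 genes, 2.73% as higher and 3.92% as lower. It called Krt8 (3.02, SE 0.34), Krt18 (2.66, SE 0.27) and Krt23 (-5.52, SE 0.49). Elf3 was called as well (3.71, SE 0.57), against control readings at background.

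**Figure D2:**
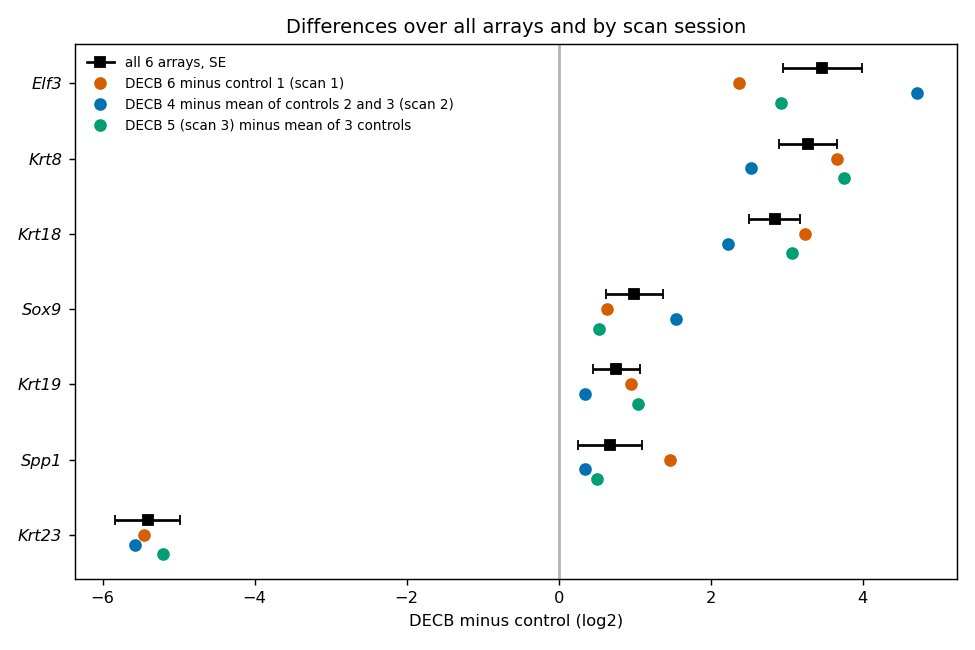
DECB minus control (horizontal axis, log2) for the 7 tested genes over all 6 arrays with the model's SE (squares) and by scan session (circles). Each circle lies on the same side of 0 as its square. Krt23 spans -5.57 to -5.20 and Elf3 spans 2.37 to 4.72. Krt23 was at background on DECB 4 and DECB 6, and Elf3 on all controls.

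The rest of the keratin family showed few differences of this size. Of 48 other keratin genes on the array, 25 passed the filter, 0 were called by limma, and Krt13 and Krt81 were at an unadjusted p under 0.05. Their median difference was 0.15, against -0.03 over all genes tested. Krt13, a type I keratin of stratified mucosa, had values of -1.03, -0.27 and -1.12 on DECB 4, 5 and 6, against -2.65, -2.95 and -2.66 on controls 1, 2 and 3. The groups did not overlap, and the difference of 1.95 (SE 0.33) passed with scan as a block alone (limma, adjusted p = 0.0685, and 0.0236 blocked). Krt81, a hair keratin, differed by 2.16 (SE 0.62, limma, adjusted p = 0.249). Krt222, Krt10, Krt80 and Krt31 differed by 0.99, 0.52, 0.48 and -0.25 (limma, adjusted p from 0.642 to 0.95). Krt81 was well above background on 2 DECB and 2 control arrays, and Krt13 and Krt10 on 3 DECB and 2 control arrays. The differences of Krt81, Krt13 and Krt10 therefore rest partly on background readings.

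**Figure D3:**
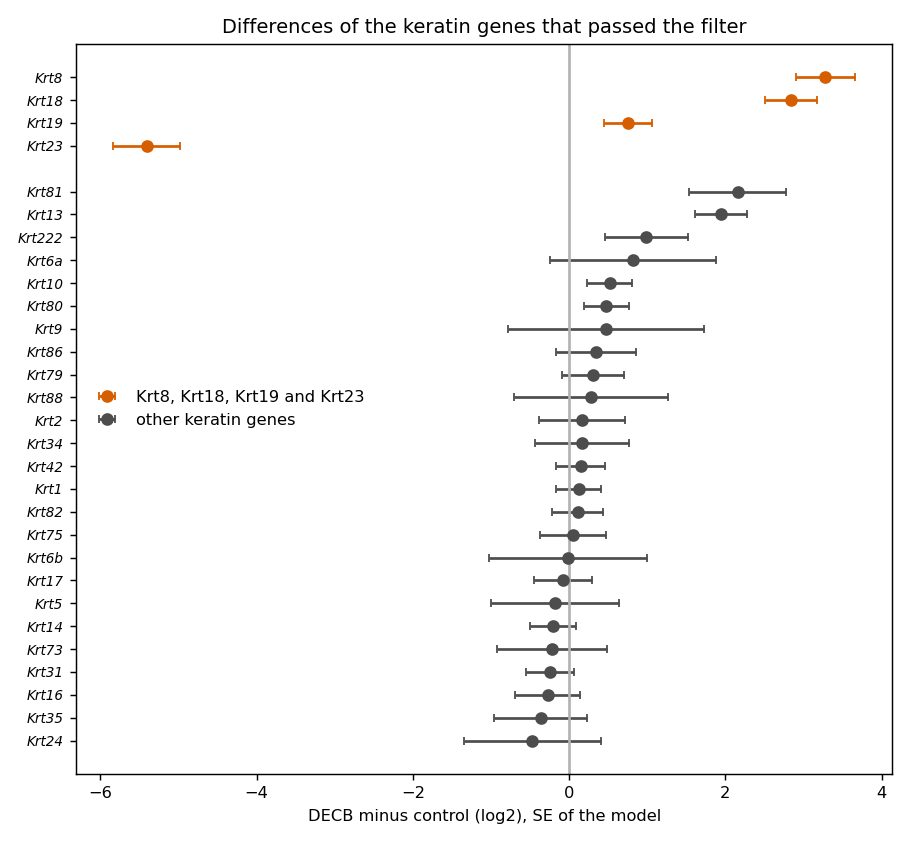
DECB minus control (horizontal axis, log2, with the model's SE) for the 29 keratin genes that passed the filter. Krt8 and Krt18 lie furthest to the right, at 3.28 and 2.84, Krt23 lies at -5.41, and the 25 other keratins lie between -0.47 and 2.16.

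Lists of related genes, chosen for the pathways and cell types around these genes, showed no member called by limma: 0 of 271 distinct genes in 18 lists, the other keratins included, with 29 (10.7%) at an unadjusted p under 0.05 and 20 of 269 (7.43%) called with scan as a block. Over all genes these shares were 10% and 6.65%, close to those of the lists. Among 20 other cholangiocyte markers the median was 0.02, with 11 above 0 and 9 below, and it was -0.03 with quantile normalization and -0.10 with scan as a block, so its direction is not settled. Cdh1, which encodes the adhesion protein E-cadherin, was at 0.29, 0.48 and 0.17 on DECB 4, 5 and 6, against -1.23, -0.85 and -1.28 on controls 1, 2 and 3, a difference of 1.43 (SE 0.28, limma, adjusted p = 0.0962, and 0.033 blocked). Slc10a2, the bile acid importer of cholangiocytes and ileum, differed by 2.71 (SE 0.69, limma, adjusted p = 0.197, and 0.0363 blocked). It was well above background on 3 DECB and 2 control arrays. Cftr, the chloride channel of cholangiocytes, was at 2.80, 4.96 and -0.27 on DECB 4, 5 and 6, against -1.74, 2.73 and 2.76 on the controls. Control 1 and DECB 6, the arrays of scan 1, were the lowest for Cftr. The summed level of the 20 markers ran from 331 to 461 times the 75th percentile in DECB and from 308 to 429 in control livers, but 1 gene, Clu, made up 74.4% to 86.7% of it in DECB and 81.1% to 86.8% in control livers. Without Clu, a secreted chaperone, it ran from 59.6 to 84.9 in DECB and from 55.3 to 61.3 in control livers. Cftr, at 4.96 on DECB 5, is part of that sum.

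Of 13 measured progenitor and ductular reaction genes, 9 lay above 0 and the median was 0.12. It was -0.01 with normexp and -0.04 with quantile normalization, so its direction is not settled. Lcn2, which encodes lipocalin 2, a secreted protein that binds bacterial iron carriers, had values of 5.71, 4.54 and 5.33 on DECB 4, 5 and 6, against 2.87, 2.27 and 1.77 on controls 1, 2 and 3. Its groups did not overlap, with a difference of 2.89 (SE 0.43, limma, adjusted p = 0.0514, and 0.0242 blocked). Prom1, well above background on 2 DECB and 2 control arrays, differed by 0.66 (limma, adjusted p = 0.465). The keratin partners and Mallory-Denk body genes, 17 measured, had a median of 0.04. Mallory-Denk bodies are clumps of keratins 8 and 18 with other proteins in damaged hepatocytes. Of their genes, Tgm2, the crosslinking enzyme transglutaminase 2, differed by 1.56 (SE 0.40) and Hspb1, a small heat shock protein, by 1.43 (SE 0.34), with limma adjusted p of 0.197 and 0.159, and 0.021 and 0.0247 blocked. Among 10 other intermediate filament genes Lmna, which encodes lamins A and C, differed by 1.16 and Synm, synemin, by -1.78 (limma, adjusted p = 0.286 and 0.453). Lmna passed with scan as a block (limma, adjusted p = 0.0434). Synm was well above background on 2 DECB and 3 control arrays, so its difference rests partly on background readings.

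Junction genes had a median of -0.10 over 27 genes. Dsc2, a desmosomal cadherin, differed by -1.63 (SE 0.30, limma, adjusted p = 0.0858, and 0.0356 blocked), the opposite sign to Cdh1 above. With scan as a block, Dsc2 and Ocln passed as lower and Cdh1, Cldn2 and Marveld3 as higher. The 24 ETS and epithelial transcription factors had a median of -0.11 (0.01 with normexp), led by Elf2 at -1.25 and Etv6 at 0.84 (limma, adjusted p = 0.472 and 0.603, and 0.0487 for Etv6 blocked). The 12 SOX genes, with Sox14 at 0.77 and Sox5 at -0.44, had a median of 0.07 (limma, adjusted p = 0.668 and 0.734). For 19 Notch pathway genes the median was -0.25, with Maml3 at -0.97 and Mfng at -0.51 (limma, adjusted p = 0.424 and 0.765). For 17 YAP and TEAD genes it was -0.03, and Ccn2, a matricellular target of YAP, differed by -1.47 (SE 0.38, limma, adjusted p = 0.198), with Yap1 itself at -0.66 (adjusted p = 0.576). Osteopontin receptors, 9 genes, had a median of -0.02, with Itga4 at -0.99 and Itga5 at 0.83 (limma, adjusted p = 0.214 and 0.404, and 0.044 for Itga4 blocked). EpCAM partners and proteases, 10 genes, had a median of -0.04 (0.10 with normexp), with Bace1 at -1.12 and Cd44 at 0.81 (limma, adjusted p = 0.299 and 0.501, and 0.0434 for Bace1 blocked). The block turned the medians of the YAP and osteopontin receptor lists to 0.03 and 0.02. Sox14 and Itga4 were well above background on 2 DECB and 2 control arrays, and Maml3 on 1 DECB and 2 control arrays. Itga5 was so on 3 DECB and 2 control arrays. The differences of these genes rest partly on background readings.

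**Figure D4:**
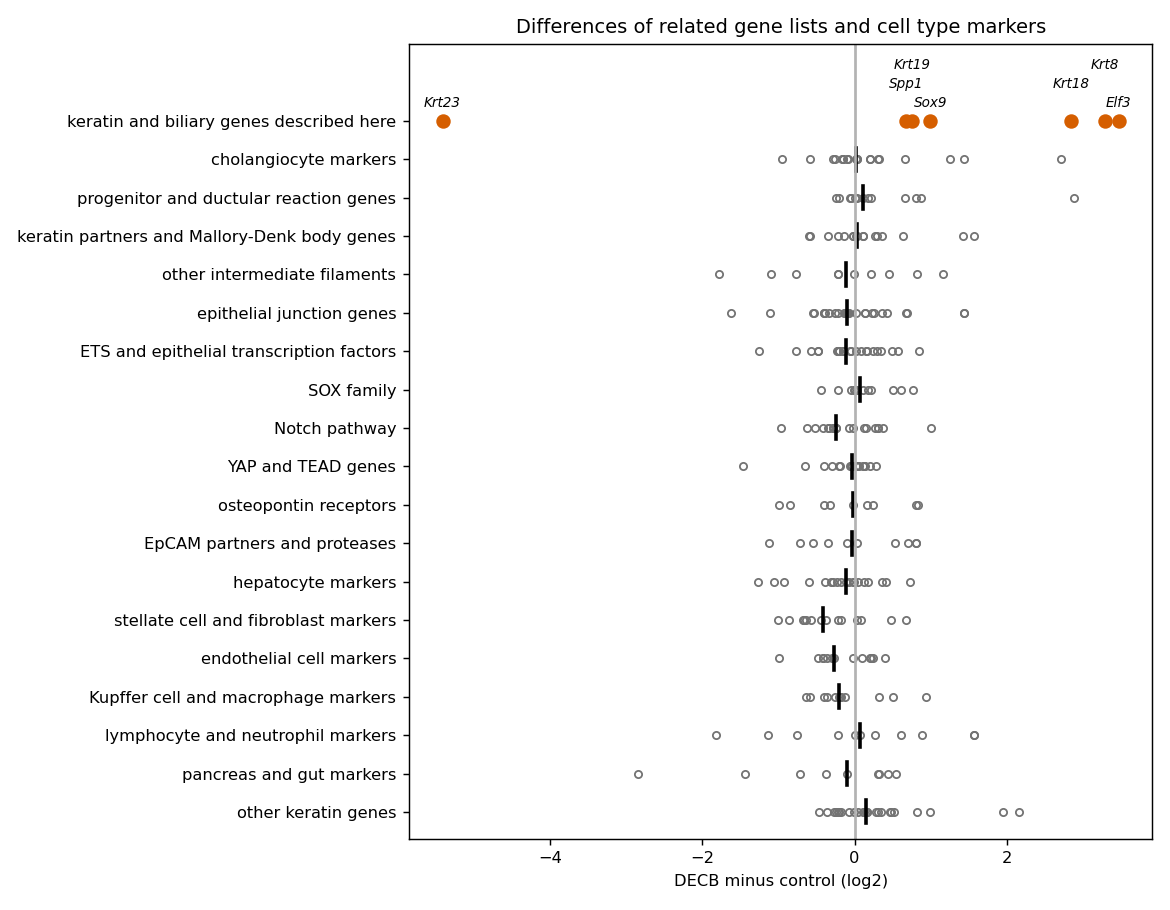
DECB minus control (horizontal axis, log2) for the 7 tested keratin and biliary genes (filled circles, named) and for the measured genes of 18 lists (open circles, with a bar at each list's median). List medians lie between -0.41 and 0.15, and single list genes run from -2.85 (Lgals4) to 2.89 (Lcn2). Krt8, Krt18 and Elf3 lie at 2.84 to 3.47 and Krt23 at -5.41. Elf3 was at background on all controls, and Krt23 on DECB 4 and DECB 6.

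Markers of other cells were set beside these values. The median was -0.12 over 19 hepatocyte markers, with Hpd at -0.93 and Asgr2 at -1.06, and the summed level ran from 3156 to 4355 in DECB and from 3592 to 4508 in control livers. Stellate cell and fibroblast markers (14 genes, median -0.41) summed to between 32.1 and 73.5 in DECB and between 51.6 and 88.5 in control livers, with Hand2 at -1.01 and Reln at -0.86 and the defining gene Lrat between -0.65 and 0.29 in DECB and between -0.27 and -0.07 in control livers. Endothelial markers (13 genes, median -0.27) summed to between 20.4 and 38.3 in DECB and between 27.0 and 46.3 in control livers, with Stab2 at -0.996 and Tek at -0.48, and the defining gene Cdh5 between -0.02 and 0.65 in DECB and between -0.09 and 0.45 in control livers. Kupffer cell and macrophage markers (12 genes, median -0.20) summed to between 33.4 and 35.9 in DECB and between 30.3 and 40.0 in control livers, with Csf1r at -0.58 and Adgre1 at -0.64, and Clec4f between 1.89 and 2.52 in DECB and between 2.20 and 2.82 in control livers. Lymphocyte and neutrophil markers (11 genes, median 0.07) summed to between 11.6 and 34.8 in DECB and between 16.7 and 53.1 in control livers. Of this sum, Cd4 made up 31.1% to 75.8% in DECB and 33.2% to 83.6% in control livers. Without Cd4 it ran from 6.87 to 9.72 in DECB and from 7.86 to 11.2 in control livers. S100a8 and S100a9, neutrophil proteins, were at 1.57 each, and the lymphocyte genes Gzma at -1.82 and Cd79b at -1.13. Ptprc lay between -2.46 and -1.99 in DECB and between -2.67 and -1.84 in control livers. The 9 pancreas and gut markers (median -0.10) had a summed level of 18.2 to 31.1 in DECB and 39.7 to 61.6 in control livers, with no overlap, of which Fabp2 made up 67.8% to 76.8% in DECB and 60.0% to 63.6% in control livers. Lgals4, a galectin of gut epithelium, differed by -2.85 and Cpb1 by -1.44, while Cpa1, which defines pancreas, was at most -3.14 on any array. Cpb1 and Reln were well above background on 1 DECB and 2 control arrays, and Tek and Cd79b on 2 DECB and 2 control arrays. S100a8 was so on 3 DECB and 2 control arrays. The differences of these genes rest partly on background readings. No gene of these 6 lists was called by limma (adjusted p of 0.101 or above for those named). With scan as a block, Hand2, Stab2, Gzma and Lgals4 passed as lower and S100a8 and S100a9 as higher (limma, adjusted p from 0.0216 to 0.0465). The block turned the medians of the Kupffer cell, lymphocyte and neutrophil, and pancreas and gut lists to 0.06, -0.06 and 0.03. The part of other cells in the keratin differences was not tested.

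Profiles across the 6 arrays were compared by Pearson's r as a description, among up to 9054 genes well above background on all arrays. The arrays share scan session and group. Elf3 was at background on all controls, Krt23 on DECB 4 and DECB 6, and Spp1 on control 1. The r values of Elf3, Krt23 and Spp1 therefore rest partly on background readings. Closest to Krt8 were Fdft1, the squalene synthase gene (r = 0.999), Krt18 (0.994), Pdgfa (0.993), Wfs1 (0.991) and the clock gene Per2 (0.991). Closest to Spp1, used because Epcam was not tested, were Sema6a (0.988), Net1 (0.968), Fam149b (0.958) and Yeats4 (0.951). For Krt23 and Elf3, added after their values were seen, the nearest genes were Arel1 (0.995), Rbl2 (0.995) and Cisd1 (0.994) for Krt23, and Smim14 (0.993), Tubb2a-ps2 (0.993), Jpt2 (0.991) and Lcn2 (0.991) for Elf3. Krt18, added likewise, was nearest to Angptl8 (0.997), Stard4 (0.995), Dusp23 (0.995), Pdzd11 (0.995) and Krt8 (0.994).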

How the data were processed

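RNA of 6 mouse liver samples was measured on 1-colour Agilent arrays. Per the file headers and the submitters' processing notes, the deposited files are Agilent Feature Extraction 11.0.1.1 output; the processed signal is an intensity, background-subtracted and spatially detrended by the authors' software and not normalized between arrays. The series' value table is on a log2 scale as deposited, with no record of its making in the sources used here. Its 6 columns share a median of 5.34, and its deviations between arrays did not follow the scanner values (r from -0.03 to 0.04 over 25315 probes), so it was not used; its centring and direction stay unknown.

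Values are log2 of the processed signal minus the array's 75th percentile over 43020 non-control spots. Spots with outlier marks, 164 to 322 on each array, were removed, 0 were saturated, and spots of a probe were averaged. A probe was kept if at least 3 of 6 arrays had it well above background (25418 of 39429), and a gene was represented by its brightest kept probe. Accessions were named through RefSeq (GRCm38.p6): 27234 of 28684 matched, and the array design is on mm9, so the coordinates given are those of RefSeq promoter windows alone. limma 3.58.1 (R 4.3.3; lmFit and eBayes, two-sided, Benjamini-Hochberg) was fitted over 14804 genes. The fit was tested on simulated data. The number of arrays limits the precision; an exact permutation test of 3 against 3 cannot go below 0.1.

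Groups came from the titles, which share no replicate number between groups. The 9 genes, the lists and the tests were chosen with earlier results of these data known. All 9 genes were named; from each list every gene past the threshold or else the 2 smallest p (6 for other keratins); and the 5 genes with the highest r to Krt8 and to Epcam or, failing that, Spp1. Markers that define a cell type (Alb, Cftr, Clec4f, Cdh5, Lrat, Ptprc, Cpa1) were named too. Genes near Krt18, Krt23 and Elf3 were added after their values were seen. So were Gzma, Cd79b, Ocln, Cldn2, Marveld3, Clu, Cd4 and Fabp2 in the lists. A few genes chosen in this way are not reported here. Alternatives were normexp (offset 50, on the median signal, where the mean signal had been planned), quantile normalization, other filters, the mean of a gene's probes, scan as a block or within it, array weights and leaving out arrays. Promoter windows of 7 of the 9 genes matched the RefSeq table, and 3 are printed.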

Additional observations from a re-analysis of the deposited data

Results flagged for a closer look

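Epcam stood out on DECB 5, a probe that the comparisons leave out because it passed on a single array. Its value there was -2.57, well above background, against -4.10 at most on the control arrays, none of which was well above background. DECB 5 was scanned apart from the other arrays, and DECB 4 and DECB 6 were at -5.37 and -3.44, neither well above background. No cause was tested.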

How the results depend on the processing

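The differences of Krt8 and Krt18 kept their sign under all 18 alternatives, from 2.53 to 3.66 and from 2.23 to 3.24, and moved by more than the spread between arrays within scan 2 (2.53 for Krt8, 2.23 for Krt18) and within scan 1 (3.24 for Krt18). With 1 array left out they ran from 3.05 to 3.61 and from 2.66 to 3.14, and the median of the tested biliary genes from 0.67 to 0.91. No difference of a tested gene reversed, although those of Krt19 and Spp1 came to 0 under the common floor described next. Krt23, Elf3 and Krt19 differed by -2.98, 1.29 and 0.25 with normexp. With all values raised to the lowest measured signal of the dimmest array, an alternative chosen after seeing the data, the biliary median was 0, Krt23 differed by -2.89, Elf3 by 0.44, 115 genes were called and, of the 9, Krt18 alone. The number of genes called in all was 69, against 39 with quantile normalization, 0 with no filter on dim probes (1257 at an unadjusted p under 0.05), 981 with scan as a block, 1221 with array weights, 2 with controls 2 and 3 averaged to 1 sample, and 0 to 53 with 1 array left out. Of the 9 genes, 3 were called, against 0 with no filter, 0 without scan 1, 2 (Krt8 and Krt18) with normexp, 4 (with Elf3) with scan as a block, array weights or the mean of a gene's probes, 1 (Krt23) with controls 2 and 3 averaged, and 0 to 2 with 1 array left out. Some alternatives used fewer arrays or tested more genes, and the causes of the changes in these counts were not tested. The value table was not run as an alternative. No paired analysis was possible because the groups share no replicate number. Signal over background limits scan 1, where the 75th percentile was 4.04 times the local background in DECB 6 and 3.75 in control 1.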
